A study of Homo sapiens with 12 samples.

Results

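The reporter variants described here carry a proline codon at the penultimate position before a premature stop codon, that is, 1 codon further upstream than the last sense codon. Each variant has a window of 10 bases, in which bases 1 to 3 are the penultimate codon, bases 4 to 6 the last codon, bases 7 to 9 a stop codon or the tryptophan codon TGG, and base 10 the base that follows. Variants were taken by sequence: bases 1 to 3 coding for proline, any sense codon other than proline at bases 4 to 6, and TAA, TAG or TGA at bases 7 to 9. Of 2736 such sequences that can be written, the table of the EJC-independent reporter lists 2517 (92.0%) and that of the EJC-enhanced reporter 2657 (97.1%), among 41955 and 51306 variants in all. The same contexts with TGG in place of the stop codon, 852 and 907 of 912, serve as controls in which translation does not end at the window.

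Both libraries were integrated by Cre-Lox recombination at 1 place in the genome of otherwise wild-type HEK293T cells, a human embryonic kidney line. The sources used here do not give its coordinates, and positions are therefore those within the window. Cells received DMSO, the vehicle, or SMG1i, an inhibitor of the kinase SMG1, at 0.5 µM for 24 hours. There are 3 libraries of total RNA in each of the 4 groups (EJC-independent with DMSO, EJC-independent with SMG1i, EJC-enhanced with DMSO, EJC-enhanced with SMG1i), and the labels do not say whether they are separate cultures. The authors deposited 1 comparison of SMG1i and DMSO per variant and reporter, with no value per library, so depth per library is unknown.

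Nonsense-mediated mRNA decay (NMD) degrades mRNAs on which translation ends early. UPF1 is recruited to the terminating ribosome and phosphorylated by SMG1, which leads to decay, and an exon junction complex (EJC) downstream of the stop codon enhances the process. When the stop codon is in the A site of the ribosome, the last codon is in the P site, where its amino acid is linked to the tRNA, and the penultimate amino acid is next to it in the nascent chain. Proline is a cyclic imino acid whose ring restrains the peptide backbone. It is known as a slow partner in peptide bond formation, and runs of prolines need the factor eIF5A.

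Response here means RNA under SMG1i relative to DMSO on the log2 scale, and higher values are taken to mean stronger decay without the inhibitor. Which treatment is the numerator is not stated in the tables. As deposited, stop variants are negative and TGG variants centre near 0, and the sign was turned here. With the opposite numerator, signs would flip and sizes would not.

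The sequences shown first are the 4 synonymous proline codons before a glycine codon, GGC, and before a tyrosine codon, TAC, each followed by TGA and A. They let synonymous codons be compared in 2 settings, since glycine and tyrosine have the highest and the lowest means as last amino acids after other penultimate codons in the EJC-independent reporter. Capitals mark the penultimate codon and the stop codon or TGG.
CCA, glycine, stop: CCAggcTGAa
CCC, glycine, stop: CCCggcTGAa
CCG, glycine, stop: CCGggcTGAa
CCT, glycine, stop: CCTggcTGAa
CCA, tyrosine, stop: CCAtacTGAa
CCC, tyrosine, stop: CCCtacTGAa
CCG, tyrosine, stop: CCGtacTGAa
CCT, tyrosine, stop: CCTtacTGAa
CCC, glycine, control: CCCggcTGGa
CCC, tyrosine, control: CCCtacTGGa

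Before glycine in the EJC-independent reporter, the authors' deposited table gives responses of 2.42 for CCA, 2.32 for CCC, 2.20 for CCG and 2.08 for CCT, with deposited standard errors between 0.27 and 0.52. Before tyrosine the authors' deposited table gives 1.67 for CCA, 1.61 for CCC, 1.24 for CCG and 1.63 for CCT, with standard errors between 0.12 and 0.33. The 4 glycine contexts lie above the 4 tyrosine contexts with no overlap. The authors' deposited table has, in the EJC-enhanced reporter, 2.51, 2.55, 2.28 and 1.52 for CCA, CCC, CCG and CCT before glycine, and 2.95, 2.20, 2.96 and 2.68 before tyrosine. The standard errors in the authors' deposited table run from 0.29 to 0.81 there, the largest for CCA before glycine at a mean count of 57.8. The ranges overlap, and the lowest of the 8 is a glycine context, with a standard error of 0.50. The TGG controls of these contexts run from -0.24 to 0.074 in the authors' deposited table (EJC-independent), and 1 of the 8, that of CCT before tyrosine, has an adjusted p under 0.05 (-0.24, adjusted p 0.0101). In the authors' deposited table for EJC-enhanced variants they run from -0.40 to 0.46, and none of these 8 is under 0.05.

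Nearly every proline context responded to the inhibitor. At a minimum of 10 for the mean normalized count, 2513 variants of the EJC-independent reporter were kept (4 of the 2517 fell below) and all 2657 of the EJC-enhanced reporter. At an adjusted p under 0.05 in the authors' deposited table, 2363 of 2513 (94.0%) EJC-independent contexts have more RNA under SMG1i and 0 have less, beside 83.9% and 0.0114% of all stop variants with sense codons. Of the EJC-enhanced contexts, 2525 of 2657 (95%) are higher in the authors' deposited table and 0 lower, beside 84.9% and 0.00316% of all stop variants, and 6 of the 2657 have no p. Their mean response was 1.80 (3.49-fold, SD over variants 0.49) in the EJC-independent reporter and 2.34 (5.08-fold, SD 0.545) in the EJC-enhanced reporter. Against TGG controls with the same other 7 bases, a stop codon raised the response by 1.81 in 2391 pairs of the EJC-independent reporter, and the stop variant was the higher in 2369 of them. In the EJC-enhanced reporter the increase was 2.31 over 2646 pairs, 2640 of them with the stop variant higher.

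The share of significant variants rose with depth, among proline contexts and others alike. Proline contexts are well represented in both libraries, with a median mean normalized count of 581 against 200 for stop variants with other penultimate codons in the EJC-independent reporter, and 370 against 122 in the EJC-enhanced reporter. Among EJC-independent variants at mean counts from 500 up, the authors' deposited table calls 1348 of 1348 proline contexts and 6712 of 6712 others. With a mean count from 10 to 50, the share in the authors' deposited table falls to 44.9% of 176 proline contexts and 36.1% of 4370 others. Among EJC-enhanced variants in this low range, shares from the authors' deposited table are 53.3% of 105 and 53.9% of 5936. Single responses are imprecise at such counts, with a median deposited standard error of 0.92 and 0.94 for the proline contexts. From 50 to 100, the authors' deposited table calls 79.5% of proline contexts and 73.3% of others (EJC-independent), and 85.7% and 83.6% (EJC-enhanced). From 100 to 500, the authors' deposited table has 97.9% and 96.1%, and 96.1% and 94%. At 500 or more, it has 99.8% and 98.7% for the EJC-enhanced reporter. The part of depth in the larger share over all counts was not tested.

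The TGG controls of the proline contexts stayed near 0. Their mean response was -0.0096 (SD 0.39, 851 variants) in the EJC-independent reporter and 0.035 (SD 0.35, 907 variants) in the EJC-enhanced reporter. By the authors' deposited table, 44 of the 851 are higher and 33 lower at an adjusted p under 0.05, beside 3.85% and 3.96% of all TGG variants with sense codons, and 16 and 2 of the 907, beside 2.85% and 1.41%.

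To separate proline from its surroundings, the mean response over the proline codons was set against the mean over all other sense penultimate codons with the same last codon, stop codon and base 10, and averaged over the 57 last codons. In the EJC-independent reporter proline contexts stood 0.092 higher (1.066-fold), with a 95% interval over last codons of 0.059 to 0.13 and an SD of 0.13. The difference was above 0 for 44 of the 57 last codons and in 445 of 683 single contexts (65.2%). In the EJC-enhanced reporter it was 0.066 (1.047-fold, interval 0.034 to 0.097, SD 0.12), above 0 for 40 of 57 last codons and in 404 of 684 contexts (59.1%). Without a stop codon, the same difference among TGG controls was 0.022 (interval -0.012 to 0.056) and 0.014 (interval -0.014 to 0.041). After subtraction of each variant's own TGG control, proline stood higher by 0.089 (interval 0.050 to 0.13) and 0.063 (interval 0.019 to 0.11). All libraries of a reporter enter every one of these values, so an interval covers how sequences vary within 1 set of libraries, and no test over libraries could be made.

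The reporters differed in how this gap moved with depth. At mean counts from 100 up, proline stood 0.087 higher in the EJC-independent reporter (interval 0.057 to 0.12) but 0.0046 in the EJC-enhanced reporter (interval -0.027 to 0.036), where the value after subtraction of TGG controls was -0.015. At 500 or more, proline stood at 0.11 in the EJC-independent reporter (interval 0.076 to 0.13, 57 last codons) and -0.13 in the EJC-enhanced reporter (interval -0.25 to -0.013, 49 last codons). The negative sign was seen only with matching. Without it, the EJC-enhanced means at that depth were 2.32 for 1042 proline contexts and 2.31 for 2938 others. The small gap of the EJC-enhanced reporter was thus not seen among variants at mean counts from 100 up, while that of the EJC-independent reporter was. What sets this was not tested. The mean count averages the DMSO and SMG1i libraries, so a cut on it is not independent of the response. Over all counts, the gap of the EJC-independent reporter exceeded that of the EJC-enhanced reporter by 0.026 (interval -0.015 to 0.067, 34 of 57 last codons), a difference that was not tested over libraries.

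The 4 proline codons are read by tRNAs carrying the same amino acid and differ only in base 3. In the EJC-independent reporter all stood above the other amino acids in matched contexts, CCG by 0.12 (interval 0.072 to 0.18), CCT by 0.10 (0.059 to 0.15), CCA by 0.10 (0.042 to 0.16) and CCC by 0.047 (0.0098 to 0.085). EJC-enhanced contexts had CCA at 0.11 (0.055 to 0.17), CCG at 0.091 (0.039 to 0.14), CCT at 0.050 (0.0035 to 0.097) and CCC at 0.013 (-0.021 to 0.047). CCC was the lowest in both. With TGG controls subtracted, the EJC-independent order changed, to CCA at 0.18 (0.085 to 0.27), CCT at 0.12 (0.059 to 0.19), CCG at 0.085 (-0.019 to 0.19) and CCC at 0.035 (-0.018 to 0.088). In the EJC-enhanced reporter CCA then stood at 0.099 (0.019 to 0.18), and the intervals of CCG (0.078), CCT (0.063) and CCC (0.0027) include 0. Compared directly with CCG before the same 7 bases, CCC minus CCG was -0.079 (interval -0.13 to -0.023, 607 contexts) in the EJC-independent and -0.081 (interval -0.14 to -0.018, 648 contexts) in the EJC-enhanced reporter. Of the other pairs of codons, CCC minus CCT was -0.055 (interval -0.11 to -0.0036) in the EJC-independent reporter, and CCA minus CCC 0.10 (interval 0.037 to 0.17) and CCA minus CCT 0.063 (interval 0.0074 to 0.12) in the EJC-enhanced reporter. The intervals of the remaining pairs include 0. After subtraction of TGG controls, CCC minus CCG was -0.048 (interval -0.14 to 0.044) and -0.093 (interval -0.19 to 0.0058), so both intervals then include 0. Likewise, the EJC-enhanced difference between CCA and CCT became 0.031 (interval -0.077 to 0.14). CCC minus CCT in the EJC-independent reporter was then -0.11 (interval -0.19 to -0.033), CCG minus CCT there -0.11 (interval -0.21 to -0.0028), and CCA minus CCC in the EJC-enhanced reporter 0.095 (interval 0.0010 to 0.19).

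Depth differed between synonymous codons as well. CCC variants had a median mean count of 1382 in the EJC-independent reporter, against 353 for CCA, 429 for CCG and 566 for CCT, and a median deposited standard error of 0.14 against 0.28, 0.26 and 0.22. Their responses were also the least scattered, with an SD over variants of 0.40 against 0.57, 0.55 and 0.44. In the 524 contexts of the EJC-independent reporter that list all 4 codons, CCC was highest 72 times and lowest 123 times, CCA 161 and 157 times, CCG 164 and 133 times, and CCT 127 and 111 times. The median range over a set of 4 was 0.53, against 0.83 in the 620 complete sets of the EJC-enhanced reporter. The part of depth in the low place of CCC was not tested. Among TGG controls CCC was not low. They stood at 0.044 (interval 0.010 to 0.079) and 0.019 (interval -0.013 to 0.050) relative to other amino acids.

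CCC followed by a G at base 4 makes a CpG dinucleotide across the codon boundary. The other proline codons, set against CCC here, include CCG, which holds a CpG in every context. In the EJC-independent reporter CCC minus the other proline codons was -0.038 (interval -0.17 to 0.089) when base 4 was G, beside -0.10 for A, -0.063 for C and -0.074 for T. In the EJC-enhanced reporter it was -0.083 (interval -0.22 to 0.050) for G, beside -0.062 for A, -0.044 for C and -0.096 for T. The junction with G lies within the range of the others in 1 reporter and nearest to 0 in the other, with intervals that include 0.

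Codons that are 1 base away from a proline codon, with the same base 3, give a comparison of close sequences. In the EJC-independent reporter proline stood above arginine CGN by 0.23 (interval 0.19 to 0.28, 51 of 57 last codons), above histidine or glutamine CAN by 0.17 (0.12 to 0.22, 46 of 57) and above serine TCN by 0.16 (0.11 to 0.20, 46 of 57). The gap to leucine CTN was 0.055 (0.0054 to 0.10), to threonine ACN 0.048 (0.0035 to 0.092) and to alanine GCN 0.038 (-0.011 to 0.086). Among TGG controls these 6 differences ran from -0.042 to 0.067, each with an interval that includes 0. After subtraction of TGG controls, arginine (0.18), histidine or glutamine (0.15) and serine (0.14) kept intervals above 0, while those of alanine, threonine and leucine include 0. The 6 gaps of the EJC-enhanced reporter were smaller, from 0.013 for threonine and 0.013 for alanine to 0.059 for histidine or glutamine (interval 0.017 to 0.10), with arginine at 0.047, serine at 0.045 and leucine at 0.050. After subtraction of TGG controls there, the gap to histidine or glutamine was 0.088 (interval 0.011 to 0.17), and the intervals of the others include 0. Restricting the comparison to other penultimate codons with equal numbers of G and C bases left the overall gap at 0.11 in the EJC-independent and 0.065 in the EJC-enhanced reporter.

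Ranked among the 20 penultimate amino acids by the matched difference, proline was the fourth in the EJC-independent reporter, after valine (0.18), isoleucine (0.15) and tyrosine (0.13), and ahead of glycine (0.040). With TGG controls subtracted, proline took place 5 there at 0.089, after valine (0.17), methionine (0.16), tyrosine (0.14) and isoleucine (0.10). Threonine was next at 0.080. Proline minus valine or isoleucine, aliphatic amino acids branched next to the backbone, was -0.073 (interval -0.13 to -0.020), and proline stood above arginine or lysine, the basic amino acids, by 0.21 (interval 0.17 to 0.26, 49 of 57 last codons). After subtraction of TGG controls, the first of these was -0.061 (interval -0.14 to 0.023) and the second 0.17 (interval 0.078 to 0.26). Among EJC-enhanced contexts proline was the highest at 0.066, with threonine (0.044), alanine (0.028) and tyrosine (0.027) next and intervals that overlap. With TGG controls subtracted, tyrosine was the highest (0.090) and proline next (0.063), and at mean counts from 100 up the proline difference was 0.0046. At the minimum count of 10, EJC-enhanced proline contexts exceeded valine or isoleucine by 0.074 (interval 0.028 to 0.12) and arginine or lysine by 0.11 (interval 0.063 to 0.15). After subtraction these gaps were 0.11 (interval 0.027 to 0.20) and 0.081 (interval 0.0068 to 0.15). They were not computed at mean counts from 100 up. By codon, CCG, CCT, CCA and CCC took places 8, 10, 11 and 18 of 61 in the EJC-independent reporter and 5, 13, 3 and 25 in the EJC-enhanced reporter.

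In the EJC-independent reporter the mean response of proline contexts differed between last amino acids. Proline followed by glycine had the highest mean, 2.17 (4.51-fold, SD over variants 0.55, 157 variants), then threonine with 2.14, serine with 1.99 and aspartate with 1.98. Proline followed by glutamine had the lowest, 1.38 (2.61-fold, SD 0.42, 92 variants), with asparagine (1.54), tyrosine (1.54) and tryptophan (1.58) next. The span over the 19 last amino acids was 0.79, beside 0.72 for other penultimate codons and 0.36 for the TGG controls. Means of proline contexts and of other contexts ran together over the 19 last amino acids (Pearson's r 0.87, a description, since all share the same libraries). The span of the EJC-enhanced reporter was 0.36 for proline contexts, beside 0.14 for others and 0.32 for TGG controls, and the 2 sets of means were less alike (r 0.30).

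The gap between proline and other penultimate codons was uneven over last amino acids in the EJC-independent reporter. It was above 0 for 14 of 19, with 9 intervals over contexts above 0 and 1 below. Phenylalanine had the widest gap at 0.23 (interval 0.16 to 0.30, 23 of 24 contexts above 0), followed by serine at 0.22 (0.17 to 0.28, 64 of 72), aspartate at 0.20 (0.10 to 0.29, 20 of 24) and alanine at 0.17 (0.11 to 0.24, 39 of 48). With other penultimate codons, phenylalanine is next to the lowest last amino acid, tyrosine. Its mean went from 1.47 with other penultimate codons to 1.70 with proline, while that of tyrosine went from 1.41 to 1.54. At the other end, tryptophan stood at -0.16 (interval -0.39 to 0.059, 12 contexts), glutamine at -0.15 (-0.26 to -0.036, 6 of 24 contexts above 0), lysine at -0.017 and glutamate at -0.014. Glycine and threonine, the highest last amino acids, had gaps of 0.072 (interval -0.041 to 0.18) and 0.061 (interval -0.021 to 0.14).

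Part of some of these gaps is also seen without a stop codon. The TGG controls of proline followed by phenylalanine stood 0.084 higher than those of other penultimate codons (interval 0.015 to 0.15), and those followed by cysteine 0.094 (interval 0.0059 to 0.18). After subtraction of TGG controls, 5 of the 19 intervals were above 0 and 0 below: alanine at 0.26, serine at 0.18, phenylalanine at 0.14, histidine at 0.13 and leucine at 0.070. Aspartate was then 0.10 (interval -0.042 to 0.24), with TGG controls of its codon GAT 0.28 above others, and glutamine -0.034 (interval -0.18 to 0.11). These 5 were picked by that subtraction, so it is no further check on them. Their gaps before subtraction had intervals above 0 with other count minimums and with medians, which reuse the same variants. The gaps after subtraction were not recomputed in those ways.

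The synonymous last codons of phenylalanine, alanine and serine were on the same side within each amino acid. Both phenylalanine codons were above 0 after proline, TTT by 0.25 and TTC by 0.21, as were all 4 alanine codons, from 0.14 for GCT to 0.203 for GCG. The 6 serine codons fall in 2 boxes that differ in their leading bases. They stood at 0.45 for AGT and 0.204 for AGC, and at 0.31 for TCA, 0.16 for TCC, 0.13 for TCT and 0.082 for TCG, so both boxes were above 0. The TGG controls of AGT stood 0.15 above others, and its 40 variants had a median mean count of 225. Both glutamine codons were below 0, CAA with -0.15 and CAG with -0.14, but the TGG controls of CAA were lower still, at -0.30. After their subtraction CAA stood at 0.10 and CAG at -0.17. Glycine was uneven, with GGA at 0.32 and GGC at -0.068.

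For the EJC-enhanced reporter the gap was above 0 for 16 of 19 last amino acids, with 5 intervals above 0 and 0 below. Lysine had the largest value, 0.28 (interval 0.092 to 0.47), from 83 variants with a median mean count of 99.1, and fell to -0.041 at mean counts from 100 up. Aspartate followed at 0.27 (interval 0.099 to 0.44, 20 of 24 contexts above 0), then tryptophan at 0.14 (-0.015 to 0.30), valine at 0.12 (0.052 to 0.19) and glycine at 0.11 (0.022 to 0.20). At mean counts from 100 up, valine was 0.015 and glycine -0.037. Glutamate (-0.025), threonine (-0.0079), arginine (-0.0060) and methionine (0.011) were lowest. Proline followed by aspartate had the highest mean of all, 2.58 (6.0-fold, SD 0.68), and its gap stayed between 0.23 and 0.29 in the 5 alternatives. In the TGG controls the difference before aspartate was -0.025 (interval -0.18 to 0.13). Once TGG controls were subtracted, 3 of the 19 intervals of this reporter were above 0 and 0 below. They were those of tryptophan at 0.32 (interval 0.14 to 0.49), aspartate at 0.29 (0.070 to 0.50) and tyrosine at 0.10 (0.019 to 0.19). The intervals of lysine, valine, glycine and serine then included 0. Aspartate was the only last amino acid among the 4 widest gaps of both reporters before subtraction of TGG controls, which brought its EJC-independent gap to 0.10 as given above.

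In the EJC-independent reporter TGA stood above both other stop codons after proline. The mean response of proline contexts was 1.95 before TGA, 1.76 before TAA and 1.70 before TAG. With the other 7 bases equal, TGA exceeded TAG by 0.26 (interval 0.21 to 0.31, 72.8% of 789 pairs) and TAA by 0.18 (interval 0.13 to 0.23, 69.2% of 790 pairs), while TAA minus TAG was 0.057 (interval -0.0042 to 0.12). For other penultimate codons the same differences were 0.19 (interval 0.16 to 0.22) and 0.14 (interval 0.12 to 0.17). The gap between proline and other penultimate codons was 0.12 before TGA (interval 0.073 to 0.17), 0.079 before TAA (0.034 to 0.13) and 0.072 before TAG (0.019 to 0.12), with intervals that overlap. In the EJC-enhanced reporter the means were 2.36 for TAA, 2.35 for TGA and 2.33 for TAG, with intervals of all 3 pairwise differences including 0, and gaps of 0.057, 0.057 and 0.083. The gaps before TGA and TAG fell to -0.017 and -8.0e-05 at mean counts from 100 up.

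The base after the stop codon made small differences within proline contexts. In the EJC-independent reporter the means were 1.83 for A, 1.82 for G, 1.80 for T and 1.76 for C, and A exceeded C by 0.076 (interval 0.031 to 0.12, 588 pairs) and G exceeded C by 0.070 (interval 0.022 to 0.12). A minus G was -0.044 (interval -0.13 to 0.037) after proline, against 0.092 (interval 0.047 to 0.14) after other penultimate codons, a contrast that was not tested over libraries. The contrast is one of means, since the shares of pairs with A higher were alike. They were 53.4% of 549 pairs after proline and 52.9% of 3484 pairs after other penultimate codons. The gap between proline and the others was largest with G at base 10, 0.13 (interval 0.079 to 0.18), and smallest with A, 0.058 (0.0049 to 0.11), which was 0.014 (-0.098 to 0.13) after subtraction of TGG controls. Over the 12 combinations of stop codon and base 10 it ran from 0.0058 for TAG followed by A to 0.20 for TAA followed by G (interval 0.12 to 0.28, 42 of 57 last codons). In the EJC-enhanced reporter G at base 10 also had the largest gap, 0.11 (interval 0.047 to 0.17), which was -0.0077 at mean counts from 100 up. The combinations ran there from -0.0061 for TAA followed by C to 0.14 for TAG followed by G (interval 0.051 to 0.22).

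Single proline contexts spread far wider than these means. The extremes below have mean counts from 100 up, for themselves and their TGG controls, and an adjusted p under 0.05, which 1912 contexts of the EJC-independent reporter and 2260 of the EJC-enhanced reporter met. They are the 3 highest and 3 lowest of each reporter, picked for their values, which are given as a description. Capitals again mark the penultimate codon and the stop codon.
EJC-independent, high, glutamate: CCCgagTGAg
EJC-independent, high, threonine: CCTacgTGAt
EJC-independent, high, glycine: CCGggtTGAg
EJC-independent, low, glutamine: CCGcaaTGAc
EJC-independent, low, cysteine: CCTtgtTAAg
EJC-independent, low, asparagine: CCGaacTAAt
EJC-enhanced, high, serine: CCGagtTGAg
EJC-enhanced, high, alanine: CCGgcgTAAg
EJC-enhanced, high, lysine: CCGaagTAGc
EJC-enhanced, low, valine: CCCgtgTAGa
EJC-enhanced, low, tyrosine: CCGtatTAGg
EJC-enhanced, low, arginine: CCGcgaTAGg

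Among EJC-independent contexts the authors' deposited table gives 3.99 ± 0.54 (deposited standard error) for the highest, a proline and glutamate context with a mean count of 105.5, and -0.039 for its TGG control. Next in the authors' deposited table are proline with threonine at 3.44 ± 0.43 and proline with glycine at 3.18 ± 0.47. All 3 have TGA as the stop codon, and their TGG controls lie between -0.18 and 0.035. At the low end the authors' deposited table has proline with glutamine at 0.77 ± 0.31, proline with cysteine at 0.78 ± 0.27 and proline with asparagine at 0.86 ± 0.17, the last with a mean count of 1065. Glutamine and asparagine are also the lowest last amino acids of the proline contexts on average.

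Among EJC-enhanced contexts the authors' deposited table gives 5.70 ± 0.77 for proline with serine AGT, 5.32 ± 1.31 for proline with alanine and 4.68 ± 0.71 for proline with lysine, all with CCG. The lowest in the authors' deposited table are proline with valine at 1.21 ± 0.56, proline with tyrosine at 1.24 ± 0.45 and proline with arginine at 1.26 ± 0.46, all before TAG. These low tyrosine and arginine contexts have CCG too. CCG variants were the most scattered of this reporter, with an SD of 0.63 against 0.59 for CCA, 0.53 for CCT and 0.40 for CCC. No context is among the extremes of both reporters.

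Across the 2473 proline contexts kept in both tables, the responses of single variants did not run together between reporters (Pearson's r -0.0035, Spearman's rho 0.0035). Among the 2046 at mean counts from 100 up in both, r was 0.017. The gap between proline and other penultimate codons per last codon had r 0.19 over the 57 last codons. These are descriptions across sequences, which are no independent replicates. Measurement error lowers such correlations. Over all proline contexts the median deposited standard error was 0.22 (EJC-independent) and 0.41 (EJC-enhanced), beside SDs of 0.49 and 0.545. Its part was not tested.

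Where the last codon is proline too, a case outside these contexts, the response in the EJC-independent reporter was 1.99 over 192 variants with proline at both positions, against 1.75 with other penultimate codons. The gap there was 0.23 (interval over 4 last codons 0.15 to 0.32, above 0 in 48 of 48 contexts), and 0.00011 in the EJC-enhanced reporter (interval -0.093 to 0.093). Among TGG controls the same difference was 0.0675 (interval -0.041 to 0.18) in the EJC-independent and 0.019 (interval -0.065 to 0.10) in the EJC-enhanced reporter. The gap after their subtraction was not computed.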

How the data were processed

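The submitters' processing notes name DESeq and DESeq2, with no version. The aligner and the read assignment remain not given in the sources used here. Per the file headers, each variant has the following values. The authors deposited a signal, the normalized count averaged over libraries. They deposited a fold change and its standard error, both log2. The deposited test statistic is a score. The deposited p-values come raw and adjusted. The 2 tables were normalized apart and are read within themselves. Nothing says that the 3 libraries of a group came from separate cultures, so the deposited p-values measure only the spread between these libraries, which may be technical. Only the deposited adjusted p at 0.05 was used for single variants, and no further test was run.

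From the tables the sign of the log2 fold change was turned, variants whose mean normalized count was under 10 were dropped, and variants with an in-frame stop codon at bases 1 to 6 were left out. Differences were taken within contexts that share bases 4 to 10, averaged per last codon, then over last codons with equal weight. Standard deviations and 95% intervals run over last codons, or over contexts for a single last amino acid, and cover the spread between sequences only. The calculation was tested on simulated data for the listed variants. Alternatives were other count minimums, medians, inverse variance weights, equal G and C content, each proline codon left out, and each stop codon or base 10 alone. Named contexts were the 4 proline codons, stop codons, bases at position 10, the 4 highest and lowest last amino acids, a display fixed by sequence, and the 3 highest and lowest single variants per reporter. Other last codons, the comparison with proline at both positions, and amino acids beyond the 4 were chosen after their values were seen. The members and lists were chosen with earlier results of these data known. Python 3.11.15, pandas 2.3.3, numpy 2.4.6 and SciPy 1.17.1 were used.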

Additional observations from a re-analysis of the deposited data

How the results depend on the processing

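No paired analysis was possible because the tables hold 1 comparison per variant and no value per library, and replicates could not be left out for the same reason. Values are log2 differences between proline and other penultimate codons. The EJC-independent difference of 0.092 was above 0 in each of 22 alternatives, between 0.058 (A at base 10 alone) and 0.20 (counts of 50 to 100), with 0.13 for G at base 10 alone. The interval lay above 0 in 20 of the 22, and included 0 for counts of 10 to 50 and of 50 to 100. The EJC-independent value after subtraction of TGG controls, 0.089, was 0.014 with A at base 10 alone, and the TGG controls were -0.018 with C at base 10 alone. The EJC-enhanced difference of 0.066 was 0.022 with a count of 50 or more, 0.0046 with 100 or more and 0.11 for G at base 10 alone. Of its 22 alternatives, 16 had an interval above 0. By range of counts, chosen after seeing the data, the EJC-enhanced difference was 0.13 (10 to 50), 0.11 (50 to 100), 0.014 (100 to 500) and -0.13 (500 or more). Counts average both treatments, so these ranges are not independent of the response. Means without matching at 500 or more were 2.32 for proline and 2.31 for others. The EJC-enhanced value after subtraction of TGG controls, 0.063, was -0.015 with a count of 100 or more and 0.016 with medians. The TGG controls of that reporter were 0.052 with medians and 0.041 with inverse variance weights. Of the EJC-enhanced splits whose interval lay above 0, 5 went below 0 with a count of 100 or more: last glycine (-0.037), last lysine (-0.041), TAG (-8.0e-05), TGA (-0.017) and G at base 10 (-0.0077). Splits whose interval included 0 changed sign as well, among them CCC (-0.048) and last glutamine (-0.035). Another 17 of the 300 values for splits moved by more than the arm of the main interval, 7 after subtraction of TGG controls, 5 with a count of 50 or more and 5 with 100 or more. The remaining 278, and 96 of 112 values for the main differences and counts, moved by no more than that arm or, for counts, less than 1.5 times. The cause was not tested.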
